A study of Mus musculus with 6 samples.

Results

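The teneurins, the latrophilins and the FLRT proteins are 3 families of cell-surface adhesion molecules that bind one another, and 9 of their genes were followed in bulk RNA-seq of mouse induced pluripotent stem cells (iPSCs) with and without Tet1. The 9 genes are the teneurins Tenm2, Tenm3 and Tenm4, the latrophilins Adgrl1, Adgrl2 and Adgrl3, and the FLRT genes Flrt1, Flrt2 and Flrt3. They were found by gene symbol in the deposited count table, where each matched 1 of 48440 genes. They were brought together because Tenm3 and Adgrl2 were higher in every knockout clone. The differences between knockout and non-targeted clones are therefore a description for these genes. Calls from the fits across all genes are counted for them only beside the share of all genes called, and support nothing.

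Polyadenylated RNA came from 3 Tet1 knockout clones (clones 14, 30 and 33, replicates 1 to 3), with Tet1 Cas9 mut/mut on a wt/wt;GFP/wt background, and 3 non-targeted clones (clones 49, 51 and 52, replicates 1 to 3) that are wt/wt;GFP/wt. All 6 are male sublines of the same line, iPSC34.3, whose strain label joins B6- Tet1tm1Kohx with the reporter transgene B6;CBA-Tg(Pou5f1-EGFP)2Mnn/J. Both groups therefore carry that reporter, and p-values measure only the spread between clones of that line. The line had been grown for 14 passages before Cas9 ribonucleoprotein, a Tet1 guide and a donor oligonucleotide were transfected, with 12 h of a repair enhancer, and picked colonies then went through 4 further passages and expansion on feeder layers of mouse embryonic fibroblasts, from which the iPSCs were removed. The labels give the same transfection text for both groups.

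Teneurins are large single-pass proteins with a long extracellular part, and latrophilins are adhesion G protein-coupled receptors (GPCRs), first known as receptors of the spider toxin alpha-latrotoxin. FLRT proteins carry leucine-rich repeats and a fibronectin domain outside the cell. Teneurins and FLRT proteins both bind the extracellular part of latrophilins, and FLRT proteins also bind UNC5 receptors, contacts that are best known from the wiring and migration of neurons. In the mouse embryo Flrt3 is also needed for tissue integrity around gastrulation, and loss of Tenm4 disturbs gastrulation.

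Total counts ran from 11937909 to 16189554 per library. Tet1, which codes for an enzyme that oxidises methylated cytosine, had 365, 231 and 288 CPM (counts scaled to 1000000 per library) in knockout clones, against 1158, 966 and 1034 CPM in non-targeted clones (log2 fold change -1.84 ± 0.16 SE; edgeR adjusted p = 0.0596; DESeq2 adjusted p = 9.43e-20). Knockout replicate 1 stood apart from the other 2 knockout clones: in log2 CPM it correlated across genes at 0.984, 0.987 and 0.984 with the non-targeted clones but at 0.973 and 0.958 with knockout replicates 2 and 3. All 12 pluripotency markers passed the filter on low counts, with summed levels of 5753, 4452 and 3784 CPM in knockout clones and 6129, 5523 and 6034 CPM in non-targeted clones. Of the 20 fibroblast markers tested, 15 lay above all non-targeted clones in each knockout clone, against 14.8% of all genes tested. The list's sum without fibronectin (Fn1), its most abundant member, was 386, 460 and 1035 CPM in knockout replicates 1 to 3, against 206, 324 and 307 CPM in non-targeted clones. With Fn1 the sums overlapped, at 1805, 1331 and 1732 CPM in knockout and 1695, 1438 and 1694 CPM in non-targeted clones. Knockout replicate 3 also held macrophage RNA: 10 macrophage genes, listed after the adhesion GPCR Adgre1 had been seen in that library, summed to 114, 87 and 2428 reads in knockout replicates 1 to 3 and to 99, 126 and 128 reads in non-targeted replicates 1 to 3, with 9 of the 10 highest in knockout replicate 3 and Itgam listed at 0 in all. In bulk RNA fewer cells of a type and less RNA per cell cannot be told apart.

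Of the 9 genes, 8 passed the filter on low counts and 3 had every knockout clone above all non-targeted clones: Tenm3, Adgrl2 and Flrt2. Over all 14664 genes tested, 14.8% lay higher and 14.7% lower in that way, and since the genes were chosen on this contrast nothing is read from the count. edgeR's quasi-likelihood test called 0 of the 8 at an adjusted p of 0.05, where it called 0% of all genes, and 4 of the 8 had an unadjusted p under 0.05, as did 25.2% of all genes. DESeq2 called the same 3 genes higher, where it called 8.65% of all genes and 5.5% as higher. With 1 library left out, the DESeq2 count was between 1 (without knockout replicate 3) and 4 (without knockout replicate 1). In these 2 fits DESeq2 called 1.96% and 27.4% of all genes. Without knockout replicate 1, edgeR called 5 of the 8 and 30.1% of all genes. Since Tenm3 and Adgrl2 were picked for being higher, these counts are no evidence of a difference. Flrt2 lay just inside the rule, with 3.53 CPM in its lowest knockout clone and 2.78 CPM in its highest non-targeted clone, and Adgrl1 just outside it, with 170 and 175 CPM.

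**Figure D1:**
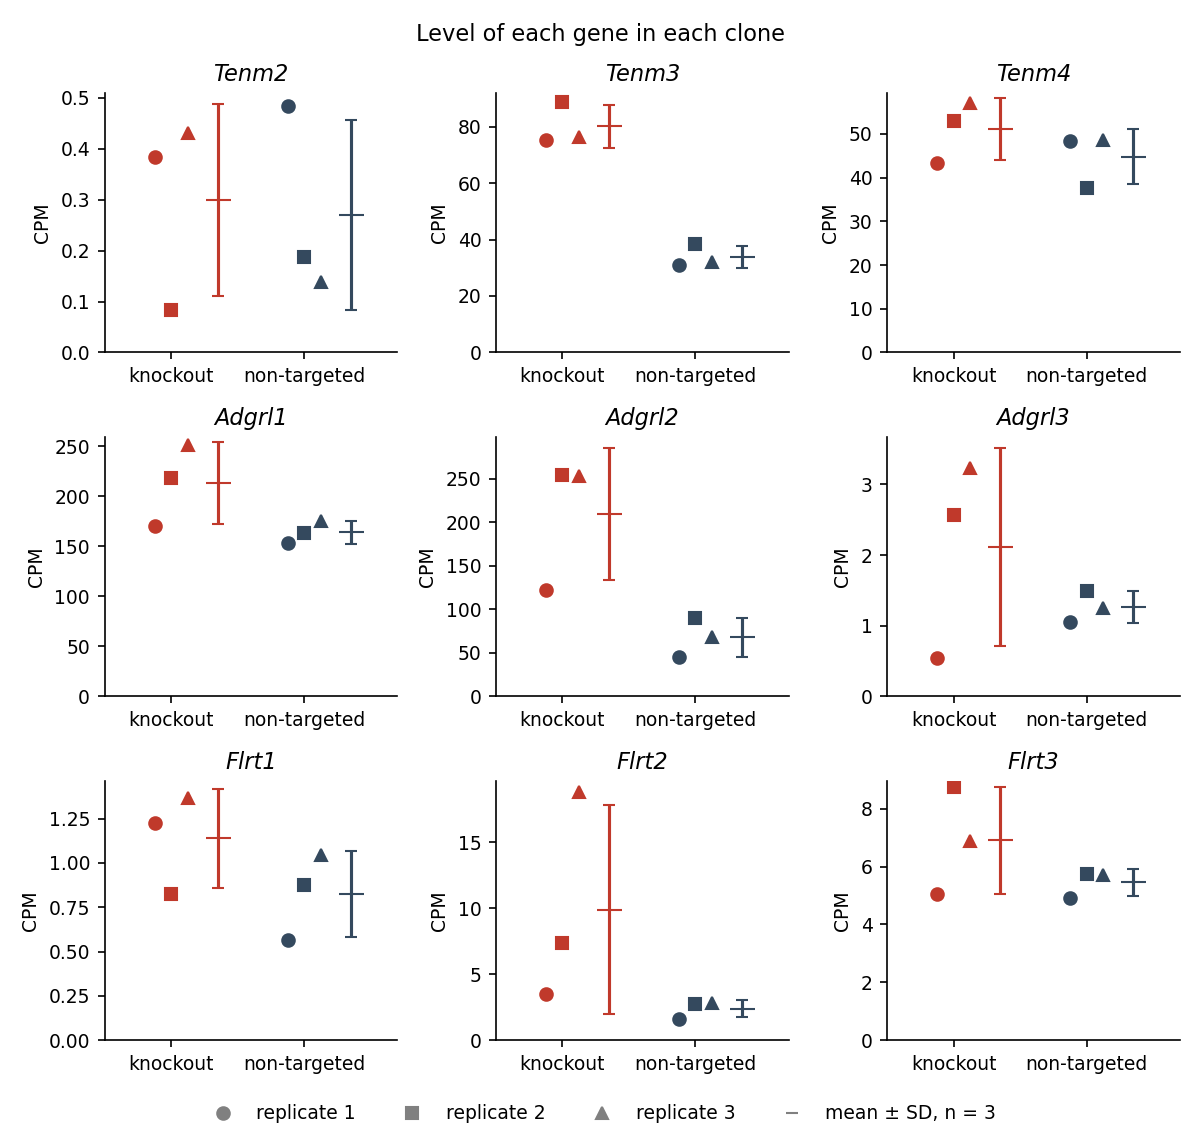
Level of the 9 genes in CPM (linear axis from 0) in the 3 knockout and the 3 non-targeted clones; symbols mark replicates 1 to 3, and the bar beside them is the mean ± SD (n = 3). The knockout points of Tenm3, 75.1 to 88.8 CPM, lie above its non-targeted points, 31.1 to 38.4 CPM, while the groups of Tenm4 overlap.

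Among the teneurins, Tenm3, which guides the wiring of visual and hippocampal neurons, differed by a similar amount in each knockout clone. It had 980, 1073 and 1063 reads in knockout replicates 1 to 3, against 386, 616 and 463 reads in the non-targeted replicates. In CPM these were 75.1, 88.8 and 76.4 in knockout clones and 31.1, 38.4 and 32.2 in non-targeted clones. Every knockout clone was high, and the clones of each group lay close to each other, with a coefficient of variation of 9.40% in knockout and 11.6% in the non-targeted group. The means were 80.1 ± 7.53 CPM in knockout and 33.9 ± 3.94 CPM in non-targeted clones (SD, n = 3), a log2 fold change of 1.24 ± 0.12 (SE) and a ratio of means of 2.36. Knockout replicate 1 thus lay 84.7% of the way up to the mean of the other 2 knockout clones, counted from the non-targeted mean. For the 772 tested genes that DESeq2 called higher, the median of that position was 38.6%, with an interquartile range of 19.4% to 64.5%. Tenm3 was picked for being higher in every knockout clone, which was not asked of these genes. Nothing is therefore read from the contrast. The fibroblast sum without Fn1 was 386, 460 and 1035 CPM in the same 3 knockout clones, each above the 206, 324 and 307 CPM of the non-targeted clones. With Fn1 included the sums overlapped, at 1805, 1331 and 1732 CPM in knockout and 1695, 1438 and 1694 CPM in non-targeted clones. The part of fibroblast RNA in the level of Tenm3 was not tested. Without knockout replicate 3 the log2 fold change of Tenm3 was 1.27.

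Tenm4, the teneurin with a known part in gastrulation, showed no such separation of the groups. It had 43.3, 53.0 and 57.1 CPM in knockout clones, against 48.3, 37.6 and 48.6 CPM in non-targeted clones. The groups overlapped, with knockout replicate 1 inside the non-targeted range, and the log2 fold change was 0.19 ± 0.15 (SE). The count of Tenm3 divided by that of Tenm4 in the same library, a measure that needs no scaling between libraries, was 1.73, 1.67 and 1.34 in knockout clones and 0.644, 1.02 and 0.662 in non-targeted clones. Tenm3 reads therefore outnumbered Tenm4 reads in every knockout clone and in 1 of the non-targeted clones. Tenm2, the teneurin first found as a partner of Adgrl1 in brain, was close to the limit of detection, with 5, 1 and 6 reads in knockout clones and 6, 3 and 2 reads in non-targeted clones. At 12 reads in all in knockout and 11 in the non-targeted group, it did not pass the filter on low counts, and no difference was detectable at this depth. Summed over the 3 genes, teneurin RNA stood at 119, 142 and 134 CPM in knockout clones and at 80.0, 76.2 and 80.9 CPM in non-targeted clones, a difference that Tenm3 mainly made up.

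Among the latrophilins, Adgrl2, a receptor that acts at hippocampal synapses, showed the largest difference of the 3 between groups, with a wide spread among clones. It had 1592, 3072 and 3524 reads in knockout clones, against 565, 1451 and 979 reads in non-targeted clones. In CPM these were 122, 254 and 253 in knockout and 45.6, 90.5 and 68.0 in non-targeted clones. Knockout replicates 2 and 3 were high, knockout replicate 1 lay closest to the non-targeted clones, and the groups did not overlap. The means were 210 ± 76.0 CPM in knockout and 68.1 ± 22.5 CPM in non-targeted clones (SD, n = 3), with a log2 fold change of 1.62 ± 0.33 (SE). Knockout replicate 1 lay 29.1% of the way to the mean of the other 2 knockout clones. The median was 38.6% for genes that DESeq2 called higher, a set not picked in the way Adgrl2 was. Primitive streak and mesendoderm markers were also high in knockout replicates 2 and 3: the 12 markers summed to 17.3, 108 and 66.7 CPM in knockout clones and to 12.7, 22.5 and 10.4 CPM in non-targeted clones. Of these markers 8 were tested and 2 lay higher without overlap, against 14.8% of all genes tested. Gsc, Mesp1, Cer1 and Tbx6 did not pass the filter on low counts, and none of the 12 markers was at 0 in all libraries. Without knockout replicate 3, the library with macrophage RNA, the log2 fold change of Adgrl2 was 1.46. The part of these other cell types in the level of Adgrl2 was not tested.

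Adgrl1, the classical latrotoxin receptor of nerve terminals, differed less between the groups. It had 170, 218 and 251 CPM in knockout clones, against 153, 164 and 175 CPM in non-targeted clones. The groups overlapped because knockout replicate 1 lay below non-targeted replicate 3, and the log2 fold change was 0.38 ± 0.14 (SE). Reads of Adgrl2 divided by reads of Adgrl1 in the same library gave 0.717, 1.16 and 1.01 in knockout clones and 0.298, 0.553 and 0.389 in non-targeted clones. In knockout replicates 2 and 3 both receptors were thus present in about equal read numbers, while Adgrl1 reads prevailed in the other 4 libraries. Adgrl3, a latrophilin of cortical synapses, was low, with 7, 31 and 45 reads in knockout clones and 13, 24 and 18 reads in non-targeted clones. Its levels of 0.537, 2.56 and 3.24 CPM in knockout clones enclosed the non-targeted levels of 1.05, 1.50 and 1.25 CPM, and the log2 fold change was 0.72 ± 0.56 (SE). Together the 3 latrophilins reached 293, 475 and 508 CPM in knockout clones and 200, 256 and 244 CPM in non-targeted clones.

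Among the FLRT genes, Flrt2, which codes for an UNC5-binding guidance protein also needed in the embryonic heart, had the largest fold change of the 8 genes and the least even one. It had 46, 89 and 261 reads in knockout clones, against 20, 44 and 40 reads in non-targeted clones. In CPM these were 3.53, 7.36 and 18.8 in knockout and 1.61, 2.75 and 2.78 in non-targeted clones. Knockout replicate 3 alone carried most of the difference, although the groups did not overlap, and the coefficient of variation of the knockout group was 80.2%. The log2 fold change was 2.04 ± 0.64 (SE), and it was 1.15 without knockout replicate 3. Fibroblast markers had the same order in knockout clones. Relative to the non-targeted mean, their median log2 level reached 0.64, 0.81 and 1.89 over knockout replicates 1 to 3. In non-targeted clones it was -0.38, 0.26 and 0.13. The medians of primitive endoderm (0.49, 0.50 and 0.97), primitive streak (0.08, 1.97 and 2.20) and neural markers (0.06, 0.22 and 0.60) also had this order. The fibroblast sum with Fn1 did not, at 1805, 1331 and 1732 CPM. None of the 22 fibroblast markers was at 0 in all libraries, and Twist2 and S100a4 did not pass the filter on low counts. Macrophage genes, at 2428 reads in knockout replicate 3 and at most 128 reads in any other library, were likewise highest where Flrt2 was highest. The part of feeder or macrophage RNA in the level of Flrt2 was not tested.

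Flrt3, which supports the basement membrane and cell contacts of the gastrulating embryo, had 5.06, 8.77 and 6.90 CPM in knockout clones, against 4.92, 5.74 and 5.70 CPM in non-targeted clones. Knockout replicates 2 and 3 lay above all non-targeted clones and knockout replicate 1 within them, with a log2 fold change of 0.33 ± 0.24 (SE). Flrt1, the FLRT gene best known from brain and kidney, was counted at 16, 10 and 19 reads in knockout clones and at 7, 14 and 15 reads in non-targeted clones (log2 fold change 0.45 ± 0.35 SE). At these counts its groups overlapped. Flrt1 and Flrt3 both lie inside a longer gene on the opposite strand, Macrod1 and Macrod2, from which the strand-specific counting keeps them apart. Macrod1 had 90 reads in knockout and 133 reads in non-targeted clones, and Macrod2 had 281 and 293 reads. The reads of Flrt2 divided by those of Flrt3 were 0.697, 0.840 and 2.72 in knockout clones and 0.328, 0.478 and 0.488 in non-targeted clones, so that Flrt2 outnumbered Flrt3 in knockout replicate 3 only.

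**Figure D2:**
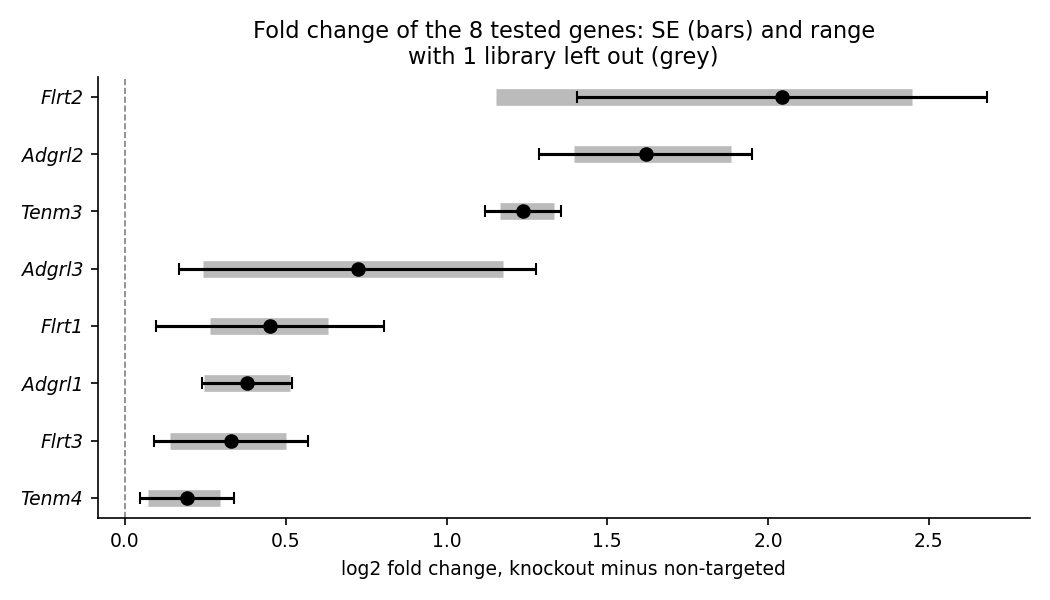
Log2 fold change (knockout minus non-targeted) of the 8 genes that passed the filter on low counts; points are edgeR estimates, bars their SE, and grey bands the range when each of the 6 libraries is left out in turn. The bands of all 8 genes lie above 0, that of Tenm3 spans 1.16 to 1.33 and that of Flrt2 spans 1.15 to 2.45.

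The patterns over the clones fell into different shapes. Tenm3 stood 1.15, 1.39 and 1.17 above the non-targeted mean on the log2 CPM scale in knockout replicates 1 to 3, where Adgrl2 stood 0.90, 1.95 and 1.95 above it and Flrt2 0.58, 1.61 and 2.94. The median of 12 pluripotency markers on that scale was -0.06, -0.40 and -0.77 in the same clones. Primitive endoderm markers, among which Sox17 and Foxa2 did not pass the filter on low counts, had medians of 0.49, 0.50 and 0.97 over 13 tested genes. Of these 13 genes, 6 lay higher and 1 lower without overlap, against 14.8% and 14.7% of all genes tested. Of the 15 neural markers, 8 were tested, with 0 higher and 1 lower without overlap, against the same shares of all genes. Sox1, Tubb3 and Neurod1 were listed at 0, and each sits inside a longer gene of its own strand, where the count settings assign no read to either gene. The neural markers summed to 277, 438 and 539 CPM in knockout and to 251, 288 and 254 CPM in non-targeted clones. Without Nes, which codes for the intermediate filament nestin, they summed to 208, 206 and 227 CPM in knockout and to 212, 195 and 209 CPM in non-targeted clones. The groups overlapped both with and without Nes.

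**Figure D3:**
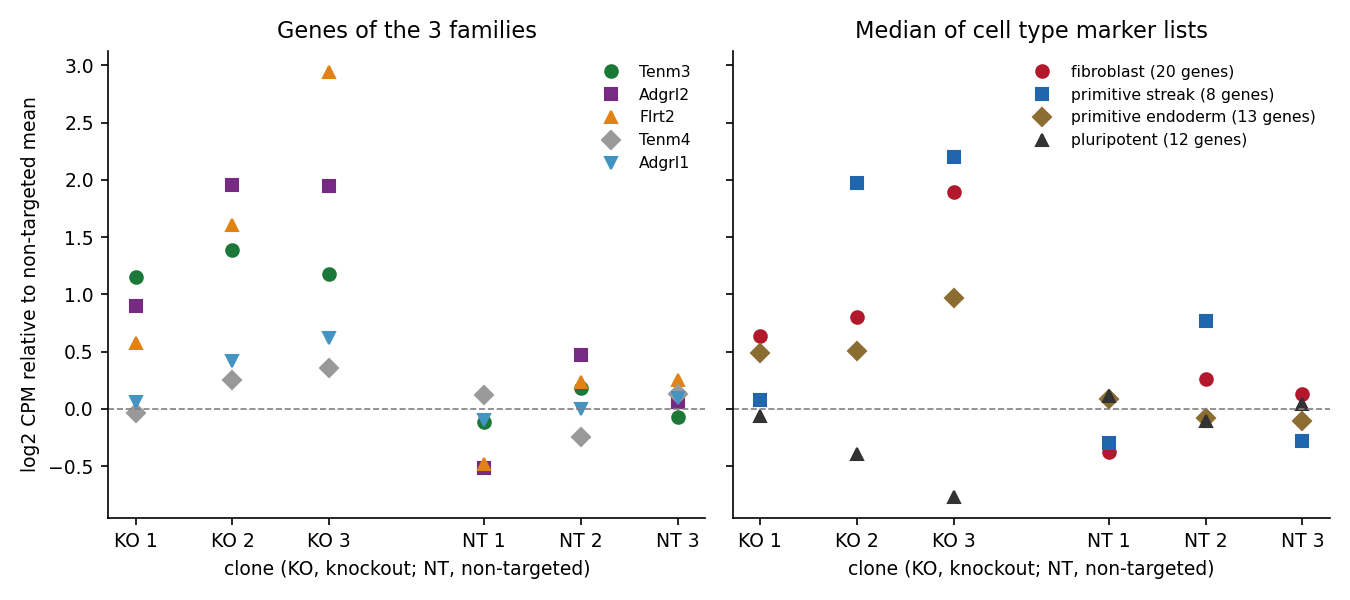
Log2 CPM relative to the mean of the non-targeted clones (y axis) in each clone (x axis, knockout left of non-targeted), for 5 genes of the families (left) and for the median of 4 cell type marker lists (right). Tenm3 lies between 1.15 and 1.39 in the 3 knockout clones, and Adgrl2 is higher in replicates 2 and 3 than in replicate 1. Flrt2 is highest in replicate 3, as are the fibroblast, primitive endoderm and primitive streak medians.

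Levels can be compared between the genes only per length, and the deposited counts include intronic reads of genes whose bodies run from 13716 bases (Flrt1) to 1229309 bases (Tenm2). Divided by the summed exon length of the GENCODE M21 annotation of the same build, the levels in knockout clones were 24.8 ± 4.76 CPM per kb for Adgrl1, 14.8 ± 5.36 for Adgrl2, 7.83 ± 0.736 for Tenm3, 2.43 ± 0.337 for Tenm4, 1.42 ± 0.381 for Flrt3, 1.28 ± 1.03 for Flrt2, 0.194 ± 0.0476 for Flrt1, 0.119 ± 0.0792 for Adgrl3 and 0.0261 ± 0.0165 for Tenm2 (SD, n = 3). In the non-targeted clones they were 19.1 ± 1.29 CPM per kb of exon for Adgrl1, 4.79 ± 1.58 for Adgrl2, 3.31 ± 0.385 for Tenm3, 2.13 ± 0.300 for Tenm4, 1.12 ± 0.0947 for Flrt3, 0.308 ± 0.0859 for Flrt2, 0.141 ± 0.0412 for Flrt1, 0.0713 ± 0.0126 for Adgrl3 and 0.0235 ± 0.0163 for Tenm2 (SD, n = 3). The order was the same in both groups. Neighbours in it overlapped for Adgrl2 with Tenm3, for Flrt3 with Flrt2, for Flrt1 with Adgrl3 and for Adgrl3 with Tenm2 in knockout clones, and for Adgrl2 with Tenm3 in non-targeted clones. Per kb of gene body, introns included, Adgrl1 and Adgrl2 stayed at the top, at 5.10 ± 0.976 and 1.20 ± 0.435 CPM per kb in knockout clones and 3.92 ± 0.264 and 0.389 ± 0.128 in non-targeted clones. On that scale Flrt3 came next, at 0.336 ± 0.0902 CPM per kb in knockout and 0.265 ± 0.0224 in non-targeted clones, ahead of Tenm3, at 0.130 ± 0.0122 and 0.0550 ± 0.00639, so the order of the others depends on the length used.

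The promoters of the 2 genes on which the grouping rests are shown next to those of a paralog of each that overlapped between the groups, because Tet1 oxidises methylated cytosines, which in mammals lie mostly in CG pairs. Each is the 250 bases upstream of the RefSeq start (GRCm38.p6), written 5′ to 3′ on the strand of the gene, with CG pairs in capitals. Tenm3 is on the minus strand (chr8:48674691-48674940), Adgrl2 on the minus strand (chr3:148954636-148954885), Tenm4 on the plus strand (chr7:96211421-96211670, the second of its 2 RefSeq starts) and Adgrl1 on the plus strand (chr8:83899848-83900097).
Tenm3: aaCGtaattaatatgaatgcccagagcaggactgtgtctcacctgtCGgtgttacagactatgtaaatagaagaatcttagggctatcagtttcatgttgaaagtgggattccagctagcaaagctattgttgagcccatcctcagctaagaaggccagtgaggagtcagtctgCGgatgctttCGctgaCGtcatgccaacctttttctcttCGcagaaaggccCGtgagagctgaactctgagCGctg
Adgrl2: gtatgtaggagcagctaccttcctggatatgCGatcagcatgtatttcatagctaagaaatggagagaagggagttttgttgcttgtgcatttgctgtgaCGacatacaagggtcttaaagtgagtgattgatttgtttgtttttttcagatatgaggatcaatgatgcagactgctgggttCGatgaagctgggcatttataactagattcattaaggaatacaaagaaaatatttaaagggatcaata
Tenm4: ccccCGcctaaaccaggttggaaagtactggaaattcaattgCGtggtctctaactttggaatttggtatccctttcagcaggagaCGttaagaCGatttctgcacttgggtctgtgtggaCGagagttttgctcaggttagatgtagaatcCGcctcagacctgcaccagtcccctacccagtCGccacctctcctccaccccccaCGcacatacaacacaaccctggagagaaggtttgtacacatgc
Adgrl1: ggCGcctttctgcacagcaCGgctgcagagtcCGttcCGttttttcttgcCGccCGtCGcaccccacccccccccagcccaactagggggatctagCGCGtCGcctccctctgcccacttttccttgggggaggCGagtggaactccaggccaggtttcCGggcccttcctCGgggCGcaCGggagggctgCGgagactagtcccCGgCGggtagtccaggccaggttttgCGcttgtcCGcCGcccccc

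These windows hold 8 CG pairs for Tenm3, 3 for Adgrl2, 8 for Tenm4 and 21 for Adgrl1, against a median of 6 over 32841 RefSeq promoters (interquartile range 2 to 16). Tenm3 and Tenm4 thus had the same number, more than 57.0% of all promoters, while Adgrl2 had more than 29.0% and Adgrl1 more than 83.6%. Of the 9 genes 8 matched an entry, with 11 promoters in all. The remaining windows held 2 CG pairs for Tenm2, 4 for the first start of Tenm4, 12 for Flrt2, 5 for Flrt3 and 36, 18 and 18 for the 3 starts of Adgrl3, so the genes that lay higher in every knockout clone had windows with 3, 8 and 12 CG pairs. The octamer ATGCAAAT and the TCF/LEF motif ATCAAAG, searched on both strands, were in none of the 11 windows and in 1.60% and 3.21% of all promoters. The motif TATAAA, also searched on both strands, was on the strand of the gene in the window of 1 start of Adgrl3 and in 12.4% of all promoters on either strand. The window of Adgrl2 holds only its reverse complement, TTTATA. The cyclic AMP response element TGACGTCA, searched after the sequences had been read, was in the window of Tenm3 alone among the 11 and in 1.55% of all promoters. These matches describe the letters only. GENCODE M21 lists further starts for Tenm3 and Adgrl2, and the counts do not tell which start was used.

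The nearest tested genes of Tenm3 and Adgrl2, with genes named as predicted models (Gm or Rik) or pseudogenes (ps) left out, differed in direction. Dctd, a deaminase gene 74.4 kb from Tenm3 (chromosome 8, 48227682 to 48844026, GRCm38), had 68.9 ± 9.09 CPM in knockout and 80.5 ± 2.50 CPM in non-targeted clones (SD, n = 3; log2 fold change -0.22 ± 0.11 SE; edgeR adjusted p = 0.241; DESeq2 adjusted p = 0.290). For Adgrl2 (chromosome 3, 148815583 to 148990555) the nearest such gene was Ttll7, 1832 kb away. Ttll7 had 1.49 ± 0.175 CPM in knockout and 0.698 ± 0.130 CPM in non-targeted clones (log2 fold change 1.07 ± 0.30 SE, edgeR adjusted p = 0.120, DESeq2 adjusted p = 0.184). On the same strand, Tenm4 and Adgrl3 alone among the 9 genes overlap other annotated genes, which had 0 reads. The count settings assign no read to either gene where they overlap, so the 0 does not tell whether those genes were expressed.

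The genes most like Tenm3 over the 6 libraries, by Pearson's r of log2 CPM among 9992 genes with a mean of at least 5 CPM, were the ubiquitin ligase gene Ubr2 (r = 0.993), the chromatin remodeller subunit gene Arid1b (r = 0.993) and Rab3ip (r = 0.991). Their even knockout clones follow from being picked by r, while their differences between groups were smaller than that of Tenm3. Arid1b had 78.3, 82.3 and 79.3 CPM in knockout clones, against 54.4, 62.1 and 53.9 CPM in non-targeted clones. Most like Adgrl2 were Zfp956 (r = 0.999), the kinase gene Hunk (r = 0.996) and Cd99l2 (r = 0.996). Hunk had 16.9, 25.6 and 28.8 CPM in knockout clones, against 8.31, 13.8 and 11.2 CPM in non-targeted clones. That knockout replicate 1 was the lowest of the 3 knockout clones also follows from the pick. The 6 libraries fall into 2 groups and share their scaling, and 121 of the 9992 genes had r above 0.95 with Tenm3 and 343 with Adgrl2.

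Genes for known partners of the 3 families, listed with some that act with those partners, mostly had positive fold changes. DESeq2 called 3 of the listed genes and edgeR 0. The 21 genes were UNC5 receptors, neurexins, FGF receptors, Shank scaffolds, Tenm1, Ntn1, Dcc and others, and are together called partners below. Of the 21, 16 were tested and 13 had a log2 fold change above 0, with a median of 0.46, against 0.00 over all genes tested. edgeR called 0 of the 16 and 8 had an unadjusted p under 0.05, all with a positive fold change, against 25.2% of all genes in either direction. In 7 of the 16 every knockout clone lay above every non-targeted clone, against 14.8% of all genes. DESeq2 called 3 higher, against 5.5% of all genes, and 0 lower. Shank2, a scaffold of the postsynaptic density, had 2.91, 4.30 and 4.31 CPM in knockout clones, against 0.968, 2.31 and 1.39 CPM in non-targeted clones (log2 fold change 1.26 ± 0.34 SE; edgeR adjusted p = 0.118; DESeq2 adjusted p = 0.0418). Shank3, its paralog, had 21.1, 22.4 and 34.4 CPM in knockout clones and 17.4, 17.0 and 13.7 CPM in non-targeted clones (0.70 ± 0.22; DESeq2 adjusted p = 0.0472; edgeR adjusted p = 0.130). The groups did not overlap for Shank2 or Shank3. Unc5b, a netrin receptor that FLRT proteins bind, had 50.5, 87.2 and 108 CPM in knockout clones and 39.9, 51.8 and 51.5 CPM in non-targeted clones (0.78 ± 0.26; DESeq2 adjusted p = 0.0467; edgeR adjusted p = 0.142), with knockout replicate 1 inside the non-targeted range. Each of the 3 DESeq2 calls was lost when knockout replicate 2, knockout replicate 3, non-targeted replicate 1 or non-targeted replicate 3 was left out, and those of Shank3 and Unc5b also without non-targeted replicate 2.

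The list of 24 other adhesion GPCR genes left out the Celsr genes. Of the 24, 10 were tested, and 6 of these 10 had a log2 fold change above 0. Over the 10 the median was 0.39 and the range -1.61 to 1.63. edgeR and DESeq2 each called 0, with 4 at an unadjusted p under 0.05 in edgeR, 3 of them higher and 1 lower, where 25.2% of all genes had such a p and DESeq2 called 8.65%. Adgrb2, a brain angiogenesis inhibitor receptor, had 14.6, 22.2 and 22.9 CPM in knockout clones, against 9.76, 15.7 and 12.0 CPM in non-targeted clones (edgeR adjusted p = 0.156; DESeq2 adjusted p = 0.0869). Adgrg6, a receptor needed for myelination, was the 1 tested gene of the 10 without overlap, where 14.8% of all genes lay higher in that way, and had 3.37, 4.55 and 2.37 CPM in knockout clones, against 2.10, 2.00 and 1.88 CPM in non-targeted clones (edgeR adjusted p = 0.172; DESeq2 adjusted p = 0.189). The difference between the latrophilins and these receptors was not tested.

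Transmembrane leucine-rich repeat adhesion genes outside the FLRT family also had mostly positive fold changes. Of 30 genes 15 were tested and 13 of these had a log2 fold change above 0, with a median of 0.55, while in 3 all knockout clones lay above, and in 1 below, the non-targeted clones, against 14.8% and 14.7% of all genes. edgeR called 0, with 8 at an unadjusted p under 0.05, 6 of them higher and 2 lower, where 25.2% of all genes had such a p. DESeq2 called 3 higher, against 5.5% of all genes, and 0 lower. Lrrn2 had 2.99, 4.30 and 4.10 CPM in knockout clones, against 1.86, 2.00 and 1.74 CPM in non-targeted clones (log2 fold change 1.02 ± 0.25 SE; edgeR adjusted p = 0.109; DESeq2 adjusted p = 0.0476). Lrig1, which restrains growth factor receptors, had 17.7, 24.4 and 26.0 CPM in knockout clones and 14.0, 16.3 and 14.8 CPM in non-targeted clones (0.59 ± 0.17; DESeq2 adjusted p = 0.0467; edgeR adjusted p = 0.123). Lrrn4 had 8.13, 33.2 and 38.7 CPM in knockout clones and 6.86, 13.5 and 7.99 CPM in non-targeted clones, with knockout replicate 1 inside the non-targeted range (1.47 ± 0.54; DESeq2 adjusted p = 0.0328; edgeR adjusted p = 0.158). All 3 calls were lost without knockout replicate 2, knockout replicate 3, non-targeted replicate 1 or non-targeted replicate 3, and those of Lrrn2 and Lrig1 also without non-targeted replicate 2.

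**Figure D4:**
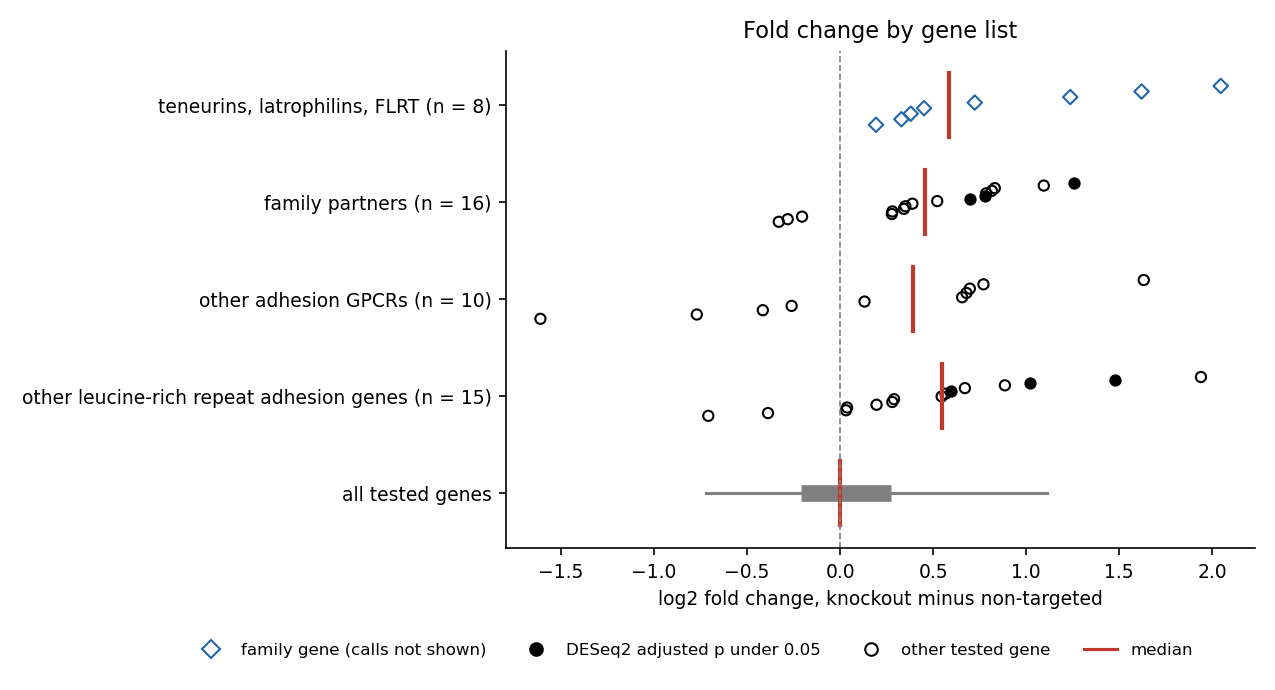
Log2 fold change (knockout minus non-targeted) of each tested gene in the 3 families and in 3 related lists, with the median as a red line; diamonds are the family genes, filled circles are genes of the other lists that passed DESeq2 at an adjusted p of 0.05, and the bottom row gives all tested genes (thick bar, interquartile range; thin bar, 5th to 95th percentile). The medians are 0.59, 0.46, 0.39 and 0.55 from top to bottom, against 0.00 for all tested genes. The family genes were brought together on this contrast, so nothing is read from their median.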

How the data were processed

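The authors deposited 1 table of raw read counts for 48440 genes. Per the file headers, featureCounts 1.6.2 counted on the reverse strand over whole gene bodies, introns included, with GENCODE M15 on GRCm38.p5, without the options that would keep multi-mapped or multiply assigned reads. The submitters' processing notes name HISAT2 2.1.0, featureCounts 1.5.3, DESeq2 1.18.1 and mm10. Gene body lengths, another quantity the authors deposited, come from the same table.

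Genes were kept by edgeR's filterByExpr (minimum count 10, minimum total 15), which left 14664. CPM is the count per 1000000 of the library's reads in the kept genes, times its TMM factor. The main test was edgeR's quasi-likelihood test on group alone, with p-values adjusted by Benjamini-Hochberg and called at 0.05. SEs were derived from the fold change and its F value. Fits used edgeR 4.0.16, DESeq2 1.42.0 and, for voom, limma 3.58.1, under R 4.3.3. Simulated counts with known changes were used to check the fits. Other tests, scaling, filters, a replicate term and the loss of each library were tried. The genes and lists were chosen with earlier results of these data known. The text names all 9 genes, from each related list the DESeq2 calls or the 2 smallest p-values, and the 3 genes most like Tenm3 and Adgrl2 (no predicted gene model). Macrophage genes were listed after Adgre1 had been seen in 1 library. Promoters come from RefSeq and exon lengths from GENCODE M21. Replicate numbers are labels only. Counts carry no molecular identifiers, so amplification is not separated from sampling.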

Additional observations from a re-analysis of the deposited data

How the results depend on the processing

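The edgeR test as reported called 0 genes over the whole table. DESeq2 called 1232 genes (783 higher and 449 lower), limma voom 1, the fit with no filter on low counts 4 and the fit with a replicate block 3; the earlier edgeR dispersion method and relative log expression factors called 0. Among the 9 family genes DESeq2 called 3, the fit with no filter 1 (Tenm3) and the fit with the replicate block 2 (Adgrl2 and Tenm3), against 0 as reported. Among the partners and among the leucine-rich repeat genes DESeq2 called 3 each. When 1 library at a time was left out, edgeR called 0 to 4562 genes in all, 0 to 5 of the family genes, 0 to 7 partners, 0 to 6 other adhesion GPCRs and 0 to 8 leucine-rich repeat genes. Each highest value came from the fit without knockout replicate 1, where 30.1% of all genes were called, and each other fit called 0.

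The log2 fold changes of the 8 family genes kept their sign in all 96 alternative values, and 95 moved by less than the spread between clones. The exception was Flrt2 without knockout replicate 3, at 1.15. Adgrl2 ranged from 1.40 to 1.89 and Adgrl3 from 0.24 to 1.18. The deviations of clones with the same replicate number correlated at 0.46, 0.11 and -0.02. Knockout replicates 1 and 2 correlated best with the non-targeted clone of their own number. Knockout replicate 3 correlated best with non-targeted replicate 2, at 0.46. Whether replicate numbers pair the clones was not tested. Upper quartile factors moved the median of all genes by 0.01 on the log2 scale. Read depth limits Tenm2, Flrt1 and Adgrl3, with at most 6, 19 and 45 reads per library.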

Other observations

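Some genes of the related, cell type marker and macrophage lists differed between clones of the same group and were chosen after their values were seen. Ntn1, which codes for netrin, a ligand of the UNC5 receptors that FLRT proteins also bind, had 126 CPM in knockout replicate 2 but 57.2 CPM in replicate 1 and 47.0 CPM in replicate 3, against 36.0, 41.0 and 51.8 CPM in non-targeted clones (edgeR adjusted p = 0.200; DESeq2 adjusted p = 0.0976). The mesoderm factor T had 48.9 CPM in that clone, against 1.92 CPM in replicate 1, 22.9 CPM in replicate 3 and 1.61, 5.12 and 1.18 CPM in non-targeted clones. Adgra2, an adhesion GPCR of endothelial Wnt signalling, had 2.99, 10.5 and 23.4 CPM in knockout replicates 1 to 3, against 2.34, 4.87 and 4.59 CPM in non-targeted clones (edgeR adjusted p = 0.186; DESeq2 adjusted p = 0.0588), and so had the same order over the knockout clones as Flrt2. Adgrd1 ran the other way, with 2.68, 0.331 and 0.360 CPM in knockout clones, against 4.52, 2.37 and 3.68 CPM in non-targeted clones (edgeR adjusted p = 0.175; DESeq2 adjusted p = 0.139). Tenm1, the teneurin on the X chromosome, had 9, 33 and 35 reads in knockout clones and 13, 27 and 9 reads in non-targeted clones, and its groups overlapped. Adgre1, a receptor of macrophages, had 243 reads in knockout replicate 3 and 0, 0, 0, 1 and 1 in the other 5 libraries. Lyz2, a lysozyme gene of macrophages, had 1359 reads in that library and 3 to 9 in the others, and C1qa, a complement gene, had 174 and 0 to 3.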
